A study of Homo sapiens with 2 samples.

Results

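The genes of purine, pyrimidine and deoxynucleotide synthesis were followed in C4-2B, a line of the LNCaP lineage that grows without androgen and models castration-resistant prostate cancer that has spread to bone. They were 41 named genes chosen by function, with earlier results of these data known. All 41 were found by symbol among 15452 expressed gene names. Cells received 2.5 µM MA4-022-1, described in the labels as an inhibitor of BET bromodomain proteins and of kinases, or DMSO as vehicle. Each group was 1 library of total RNA, so the differences could not be checked against replicates, no p-value is given, and what the compound did cannot be told apart from what set these cultures apart. How long the cells were exposed is not stated in the labels. Values are RPKM, reads scaled to transcript length and library depth, as the authors deposited them. Each log2 ratio and each fold sets RPKM + 1 with MA4-022-1 over RPKM + 1 with DMSO, and the added 1 makes differences of low genes look smaller than they are.

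Cells build purine rings step by step on ribose phosphate, and pyrimidine rings first and then attach the sugar. Ribonucleotide reductase turns the ribonucleotides into deoxynucleotides, and thymidylate synthase makes the thymine form with a carbon unit carried by folate. Salvage enzymes return free bases and nucleosides to the pools. Several genes of deoxynucleotide supply are transcribed mainly around S phase, while the synthesis of purines and pyrimidines is a textbook target of MYC, and BET proteins help to transcribe MYC.

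Of the 41 genes, 16 had at least 2-fold lower levels with MA4-022-1, and none stood 2-fold or more above DMSO. That is 39.0% of the genes, where 9.57% of all expressed genes and 9.49% of expressed protein-coding symbols were at least 2-fold lower. At least 2-fold higher were 7.74% of all expressed genes and 4.12% of the protein-coding symbols. The median log2 ratio was -0.66 over the 41 genes, against -0.02 over all expressed genes and -0.10 over the protein-coding symbols. Ratios below 0 were found for 34 of the 41 genes (82.9%), against 51.1% of all expressed genes and 55.8% of the protein-coding symbols. All 41 stood at 1 RPKM or more in a library, so none was lost to the filter on low values. Leaving out the deoxynucleotide genes, 10 of the other 32 were at least 2-fold lower, and their median was -0.64.

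Genes of cell proliferation were lower in the same library. All 12 listed, among them the sliding clamp PCNA and the replicative helicase subunits MCM2 and MCM7, passed 2-fold downward, with ratios from -3.01 to -1.02 and a summed level of 218 RPKM with MA4-022-1 against 919 RPKM with DMSO. Their part in the lower levels of the nucleotide genes was not tested, and in bulk RNA fewer cells in S phase and less RNA per cell cannot be told apart. The line matched its label in both libraries, with all 10 luminal prostate markers expressed, at 23.98 to 1675 RPKM with MA4-022-1 and 13.2 to 1528 RPKM with DMSO. KLK2 and KLK3 shared a single row, which gave the top of both ranges and cannot be split between them. None of 3 basal, 5 leukocyte and 3 endothelial markers reached 1 RPKM, and KRT5 was listed at 0 in both libraries. PECAM1 was also listed at 0 in both, but its only row lies off the standard chromosomes, so that 0 is weak evidence. Of 4 fibroblast markers LUM was listed at 0 in both, and COL1A1 alone was expressed, at 5.03 RPKM with MA4-022-1 and 1.19 RPKM with DMSO.

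**Figure D1:**
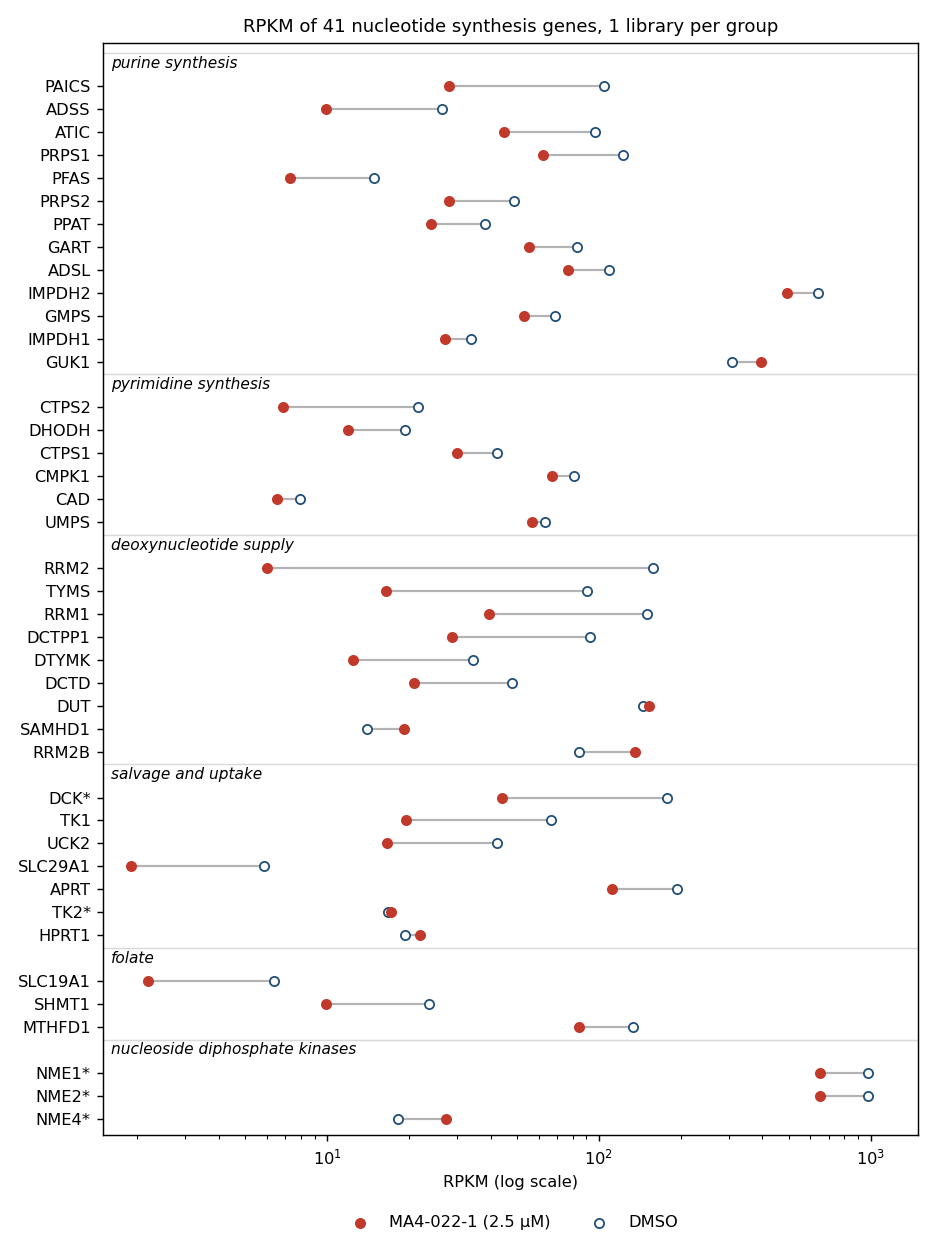
RPKM on a log scale for the 41 genes by branch, with MA4-022-1 as filled points and DMSO as open points, each 1 library. Asterisks mark genes whose row also names another gene; RRM2 has the widest gap, at 6.01 RPKM with MA4-022-1 against 158 RPKM with DMSO, whereas DUT, TK2 and HPRT1 have points that nearly meet.

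The branches differed in their medians. The 9 genes of deoxynucleotide supply had a median of -1.40 with 6 at least 2-fold lower, the 7 of salvage and uptake one of -1.25 with 4 lower, and the 3 of folate one of -1.17 with 2 lower. The 13 purine genes had a median of -0.63 with 3 lower, and the 6 pyrimidine genes one of -0.37 with 1 lower. The 3 nucleoside diphosphate kinases had a median of -0.59 and none beyond 2-fold, but NME1 and NME2 are a single joined row, so the 3 genes hold only 2 values, -0.59 and 0.56, and that row counted for both genes sets the median. For the same reason the 41 genes hold 40 distinct values. These are descriptions of small lists, and no difference between branches was tested.

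Ribonucleotide reductase joins a large catalytic subunit, RRM1, to a small subunit that holds the radical, which is RRM2 in S phase or RRM2B in cells that are not replicating or have DNA damage. RRM2 stood at 6.01 RPKM with MA4-022-1 and 158 RPKM with DMSO, a log2 ratio of -4.50 (95% counting interval -4.63 to -4.37), at hg19 chromosome 2, 10262455 to 10271545. The interval covers the error of counting reads, estimated here as 383 reads with MA4-022-1 and 13671 with DMSO, and not the spread between cultures. Only 4 of 9840 expressed protein-coding symbols had a lower ratio. RRM1 stood at 39.3 RPKM with MA4-022-1 and 151 RPKM with DMSO, which is 3.77-fold lower. RRM2B went the other way at 135 RPKM with MA4-022-1 and 84.3 RPKM with DMSO, a log2 ratio of 0.68 with an interval from 0.60 to 0.75. The 3 subunits thus moved apart. RRM2B had 22.5 times the RPKM of RRM2 in the MA4-022-1 library and 0.535 times in the DMSO library, and RRM1 had 6.54 times the RPKM of RRM2 with MA4-022-1 and 0.958 times with DMSO.

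The sequence before a start of RRM2 carries 3 copies of CCAAT, the letters that the factor NF-Y binds, at 123, 93 and 66 bases before it, and TK1 carries 2 on the opposite strand (ATTGG) at 77 and 46 bases before its start. Both genes are shown because their transcripts were lower together, and for RRM1 the whole stretch of 250 bases before the start is given. CCAAT was not particular to lower genes. It was in windows of 6 of the 16 lower genes with windows (37.5%) and 8 of the 22 others (36.4%). Among expressed gene names with windows the share was 44.2%. SAMHD1 and NME4, whose ratios were above 0, also had CCAAT in a window. Sequences are from RefSeq on GRCh38.p14, written on the strand of the gene, and capitals mark the motif (for RRM1 the CCAAT box and a GC box). A match describes letters and is not a binding site.
RRM2, chr2:10122604-10122632: ggcaaggcgcagCCAATgggaagggtcgg
RRM2, chr2:10122634-10122662: ggcatggcacagCCAATgggaagggccgg
RRM2, chr2:10122661-10122689: ggggcaccaaagCCAATgggaagggccgg
TK1, chr17:78187113-78187141, minus strand: ggccgggcgctgATTGGccccatggcggc
TK1, chr17:78187082-78187110, minus strand: ggccggctcgtgATTGGccagcacgccgt
RRM1, chr11:4094435-4094684: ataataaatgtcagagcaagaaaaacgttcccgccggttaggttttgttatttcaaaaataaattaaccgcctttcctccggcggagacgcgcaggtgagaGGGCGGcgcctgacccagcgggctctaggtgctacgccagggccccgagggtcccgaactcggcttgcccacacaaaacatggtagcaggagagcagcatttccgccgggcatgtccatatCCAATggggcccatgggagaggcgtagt

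The genes that feed the thymidine triphosphate pool were mostly lower. TYMS, thymidylate synthase, stood at 16.4 RPKM with MA4-022-1 and 90.2 RPKM with DMSO, a log2 ratio of -2.39 with an interval from -2.54 to -2.24. DTYMK, the kinase that adds the next phosphate, was 2.64-fold lower at 12.5 RPKM with MA4-022-1 against 34.5 RPKM with DMSO. DCTD, which deaminates deoxycytidylate to give the substrate of TYMS, was 2.24-fold lower at 20.9 RPKM with MA4-022-1 against 48.0 RPKM with DMSO. DCTPP1, a pyrophosphatase that clears deoxycytidine triphosphate and damaged forms of it, was 3.14-fold lower at 28.8 RPKM with MA4-022-1 against 92.7 RPKM with DMSO. The gene ENOSF1 overlaps TYMS on the opposite strand in the same locus and stood at 57.2 RPKM with MA4-022-1 and 73.7 RPKM with DMSO. The labels do not say whether counting used strand, so reads of TYMS and ENOSF1 cannot be told apart where they overlap.

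DUT and SAMHD1 were the other deoxynucleotide genes that were not lower. DUT, the dUTPase that keeps uracil out of DNA and also makes substrate for TYMS, stood at 153 RPKM with MA4-022-1 and 145 RPKM with DMSO, a log2 ratio of 0.08 with an interval from -0.01 to 0.17. SAMHD1, which degrades deoxynucleotide triphosphates and is kept low in dividing cells, was 1.34-fold higher at 19.2 RPKM with MA4-022-1 against 14.03 RPKM with DMSO. RRM2B, DUT and SAMHD1 were thus the 3 of 9 genes of the branch with a ratio above 0. Letters of an E2F site, bound by the factors that start S phase transcription, lie before the start of TYMS and, as a pair, before a start of DUT, and are given as a contrast between a gene that was lower and one that was not.
TYMS, chr18:657603-657632: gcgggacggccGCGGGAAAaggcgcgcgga
DUT, chr15:48332144-48332173: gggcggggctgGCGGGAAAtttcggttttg
DUT, chr15:48332159-48332188: gaaatttcggtTTTGGCGCgctccctgcgg

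**Figure D2:**
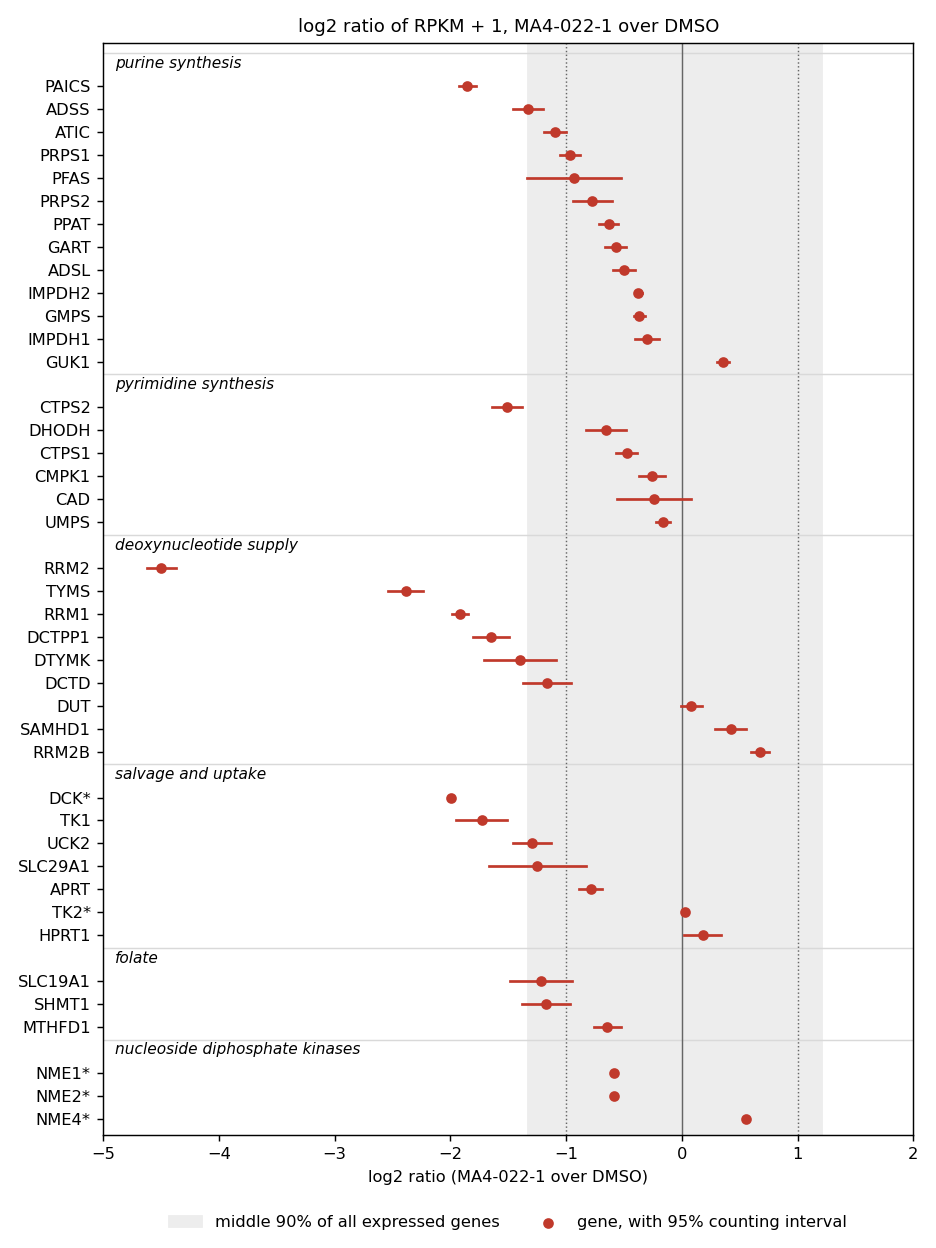
The log2 ratio of RPKM + 1, MA4-022-1 over DMSO, for each gene by branch, with bars for the 95% counting interval where the gene has rows of its own (asterisks mark genes in joined rows), dotted lines at 2-fold and a grey band from -1.33 to 1.21 for the middle 90% of all expressed genes. RRM2 lies far to the left at -4.50, and the genes above 0 include RRM2B, NME4, SAMHD1 and GUK1, none of them past 2-fold.

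Of the 7 genes of salvage and uptake, 4 were at least 2-fold lower, and 3 of these encode kinases of nucleosides. TK1, the cytosolic thymidine kinase, stood at 19.4 RPKM with MA4-022-1 and 66.8 RPKM with DMSO, a log2 ratio of -1.73 with an interval from -1.95 to -1.51. DCK, deoxycytidine kinase, shared its row with the neighbouring gene MOB1B, and that row was 3.98-fold lower at 43.9 RPKM with MA4-022-1 against 178 RPKM with DMSO, so the part of DCK in it is not known. UCK2, the uridine and cytidine kinase that is high in many tumours, was 2.45-fold lower at 16.5 RPKM with MA4-022-1 against 42.05 RPKM with DMSO.

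TK2, the mitochondrial thymidine kinase, did not share that pattern, at 17.1 RPKM with MA4-022-1 and 16.8 RPKM with DMSO. Most of this value came from a row joined with the gene name RP11-403P17.5, at 15.7 RPKM with MA4-022-1 against 16.8 RPKM with DMSO, and its own row stood at 1.36 RPKM with MA4-022-1 and was listed at 0 with DMSO. Counted from that own row alone, TK2 would be at least 2-fold higher, with a log2 ratio of 1.24, and from its largest row -0.08. TK1 had 1.14 times the RPKM of TK2 with MA4-022-1 and 3.99 times with DMSO. The enzymes that salvage purine bases were not beyond 2-fold. HPRT1, which salvages hypoxanthine and guanine, stood at 22.0 RPKM with MA4-022-1 and 19.3 RPKM with DMSO, a log2 ratio of 0.18 with an interval from 0.02 to 0.34. APRT, which salvages adenine, was 1.72-fold lower at 112 RPKM with MA4-022-1 against 194 RPKM with DMSO. The transporter SLC29A1, which lets nucleosides and nucleoside drugs into the cell, was low in both libraries, at 1.89 RPKM with MA4-022-1 and 5.87 RPKM with DMSO, a log2 ratio of -1.25 with an interval from -1.67 to -0.83, and -0.66 with a pseudocount of 5 RPKM.

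In the purine branch, 12 of 13 ratios were below 0, as were 51.1% of those of all expressed genes, but only 3 passed 2-fold. PAICS, which carries out a carboxylation and the joining of aspartate to the growing ring, stood at 28.2 RPKM with MA4-022-1 and 104 RPKM with DMSO, a log2 ratio of -1.85 with an interval from -1.93 to -1.78. ADSS, adenylosuccinate synthase on the way to AMP, was 2.51-fold lower at 9.93 RPKM with MA4-022-1 against 26.4 RPKM with DMSO. ATIC, which closes the ring, was 2.14-fold lower at 44.8 RPKM with MA4-022-1 against 96.8 RPKM with DMSO. Of the 16 lower genes it lay nearest to the threshold, with a log2 ratio of -1.09 that became -0.95 when centred on housekeeping genes, and PRPS1 lay just outside at -0.97. PRPS1 and PRPS2 are the synthetases of the activated ribose. PRPS1 stood at 62.4 RPKM with MA4-022-1 and 123 RPKM with DMSO. PRPS2 stood at 28.1 RPKM with MA4-022-1 and 48.8 RPKM with DMSO. Their ratio to each other was close in the libraries, with PRPS1 at 2.22 times the RPKM of PRPS2 with MA4-022-1 and 2.52 times with DMSO.

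The other steps of the purine ring were lower by less. PPAT, the enzyme of the committed step, was 1.55-fold lower at 24.2 RPKM with MA4-022-1 against 38.0 RPKM with DMSO. GART, which catalyses 3 of the steps, was 1.49-fold lower at 55.4 RPKM with MA4-022-1 against 82.9 RPKM with DMSO. PFAS, which adds an amide nitrogen, had a log2 ratio of -0.93, at 7.32 RPKM with MA4-022-1 against 14.9 RPKM with DMSO. Its interval, from -1.34 to -0.52, was wide, but it rests on a transcript length of 557 bases and a longer one would narrow it. With a pseudocount of 0.1 RPKM the ratio of PFAS reached -1.01. PPAT, GART and PFAS were thus lower by less than 2-fold on the main scale. ADSL, which releases fumarate in making the ring and again in making AMP, was 1.42-fold lower at 76.8 RPKM with MA4-022-1 against 109 RPKM with DMSO. On the way to GMP the differences were smaller still. IMPDH2, the rate-limiting enzyme of guanine nucleotides and the form that dividing cells favour, stood at 494 RPKM with MA4-022-1 and 641 RPKM with DMSO, and IMPDH1 at 27.1 RPKM with MA4-022-1 against 33.7 RPKM with DMSO. GMPS, which makes GMP, was 1.29-fold lower at 53.1 RPKM with MA4-022-1 against 68.8 RPKM with DMSO. GUK1, which phosphorylates GMP, was the purine gene that was higher, at 396 RPKM with MA4-022-1 and 309 RPKM with DMSO, a log2 ratio of 0.36.

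PPAT and PAICS lie head to head on chromosome 4, with only 125 bases between the start of PPAT and the first annotated exon of PAICS on GRCh38. Their ratios were nonetheless unlike, at -0.63 for PPAT with an interval from -0.71 to -0.55 and -1.85 for PAICS. PAICS had 1.16 times the RPKM of PPAT with MA4-022-1 and 2.75 times with DMSO. The stretch between the genes holds 3 GC boxes (GGGCGG), in capitals, and is written in the direction of PAICS. The E-box CACGTG, the letters that MYC and its partner MAX bind, is in windows of 10 of the genes. Of the 10, 6 were at least 2-fold lower (ATIC, DCK, DCTPP1, PAICS, SLC19A1 and SLC29A1) and 4 were within 2-fold (DHODH, MTHFD1, NME1 and PPAT). That is 37.5% of the 16 lower genes with windows and 18.2% of the 22 others, against 12.9% of expressed gene names with windows. DCK and NME1 were read from joined rows, and no difference between these shares was tested. In PPAT and PAICS the E-box lies outside the stretch between the genes. The sites of ATIC, DCK and MTHFD1 are printed as examples picked by hand from both sets.
PPAT to PAICS, chr4:56435616-56435740: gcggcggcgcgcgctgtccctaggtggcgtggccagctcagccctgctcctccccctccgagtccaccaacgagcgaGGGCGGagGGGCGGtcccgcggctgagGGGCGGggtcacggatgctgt
ATIC, chr2:215312001-215312030: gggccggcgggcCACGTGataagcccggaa
DCK, chr4:70993521-70993550: cgccccggccttCACGTGacctggcgtgcg
MTHFD1, chr14:64388326-64388352: ccagtccctaagCACGTGggttgggtt

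The pyrimidine branch was the least changed of the 5 synthesis and supply branches by its median. CAD, the large protein that performs the first steps, was low in both libraries, at 6.56 RPKM with MA4-022-1 and 7.93 RPKM with DMSO. Its log2 ratio was -0.24, with an interval from -0.56 to 0.08 that includes 0. That interval rests on a transcript length of 953 bases, and a longer one would narrow it. Whether 0 is included thus depends on that length. DHODH, the mitochondrial dehydrogenase of the pathway, was 1.58-fold lower at 11.9 RPKM with MA4-022-1 against 19.3 RPKM with DMSO. UMPS, which completes UMP, stood at 56.5 RPKM with MA4-022-1 and 63.3 RPKM with DMSO. CMPK1 phosphorylates UMP and CMP, and its levels were close in the libraries at 67.5 RPKM with MA4-022-1 against 80.7 RPKM with DMSO. Of the synthetases that make CTP, CTPS2 was the exception. CTPS2 stood at 6.88 RPKM with MA4-022-1 and 21.5 RPKM with DMSO, a log2 ratio of -1.51 with an interval from -1.64 to -1.38. CTPS1, its paralogue, was 1.39-fold lower at 30.04 RPKM with MA4-022-1 against 42.2 RPKM with DMSO, so that CTPS1 had 4.37 times the RPKM of CTPS2 with MA4-022-1 and 1.963 times with DMSO.

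The 3 folate genes were all lower. SHMT1, the cytosolic enzyme that moves a carbon unit from serine to folate, was 2.25-fold lower at 9.92 RPKM with MA4-022-1 against 23.6 RPKM with DMSO. SLC19A1, the reduced folate carrier, was 2.32-fold lower at 2.19 RPKM with MA4-022-1 against 6.396 RPKM with DMSO, summed over 2 rows. With a pseudocount of 5 RPKM both would miss 2-fold, with log2 ratios of -0.94 for SHMT1 and -0.67 for SLC19A1. MTHFD1, the cytosolic enzyme that interconverts the carbon units, was 1.56-fold lower at 84.8 RPKM with MA4-022-1 against 133 RPKM with DMSO. Of the nucleoside diphosphate kinases, which add the last phosphate in every branch, NME1 and NME2 shared a single row at 649 RPKM with MA4-022-1 and 976 RPKM with DMSO and cannot be separated. NME4, a mitochondrial form, was read from a row joined with DECR2, at 27.3 RPKM with MA4-022-1 against 18.2 RPKM with DMSO.

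**Figure D3:**
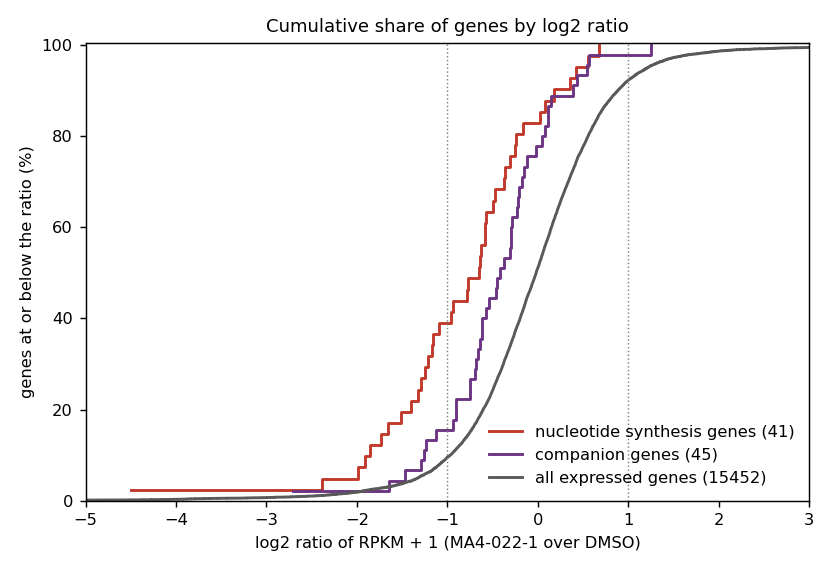
Cumulative percentage of genes at or below each log2 ratio for the 41 nucleotide synthesis genes, the 45 expressed companion genes of the same pathways and all 15452 expressed genes, with dotted lines at 2-fold. At the lower line the curves stand at 39.0% for the 41 genes, 15.6% for the companion genes and 9.57% for all expressed genes.

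Further genes of the same pathways were listed by role, also with earlier results of these data known. Of 62 such genes, 61 were found and 45 were expressed, of which 7 passed 2-fold downward and 1 upward, with a median of -0.42. Of the 7 lower ones, 4 were folate genes. The mitochondrial folate enzymes SHMT2, MTHFD2 and MTHFD1L were among them. SHMT2 stood at 107 RPKM with MA4-022-1 against 258 RPKM with DMSO. MTHFD2 stood at 88.1 RPKM with MA4-022-1 against 245 RPKM with DMSO. MTHFD1L stood at 4.44 RPKM with MA4-022-1 against 11.9 RPKM with DMSO. MTHFD2L, a mitochondrial paralogue of MTHFD2, was higher but within 2-fold, at 41.003 RPKM with MA4-022-1 and 30.01 RPKM with DMSO, a log2 ratio of 0.44 with an interval from 0.33 to 0.54. GGH, which trims the glutamate tail of folates, was also within 2-fold. It stood at 87.0 RPKM with MA4-022-1 and 98.4 RPKM with DMSO. The lower genes outside the folate group were PRPSAP1, which associates with the PRPS enzymes, 2.18-fold lower at 20.1 RPKM with MA4-022-1 against 44.9 RPKM with DMSO, and the adenylate kinases AK4 and AK5. AK4 stood at 16.6 RPKM with MA4-022-1 against 42.1 RPKM with DMSO. AK5 stood at 0.928 RPKM with MA4-022-1 against 11.6 RPKM with DMSO, so that it was low with MA4-022-1. GLRX, a glutaredoxin that can pass electrons to ribonucleotide reductase, was the higher one, at 8.59 RPKM with MA4-022-1 and 3.02 RPKM with DMSO. Of the 7 expressed genes of pyrimidine salvage and breakdown and the 3 of transport and pool cleaning, none was beyond 2-fold.

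**Figure D4:**
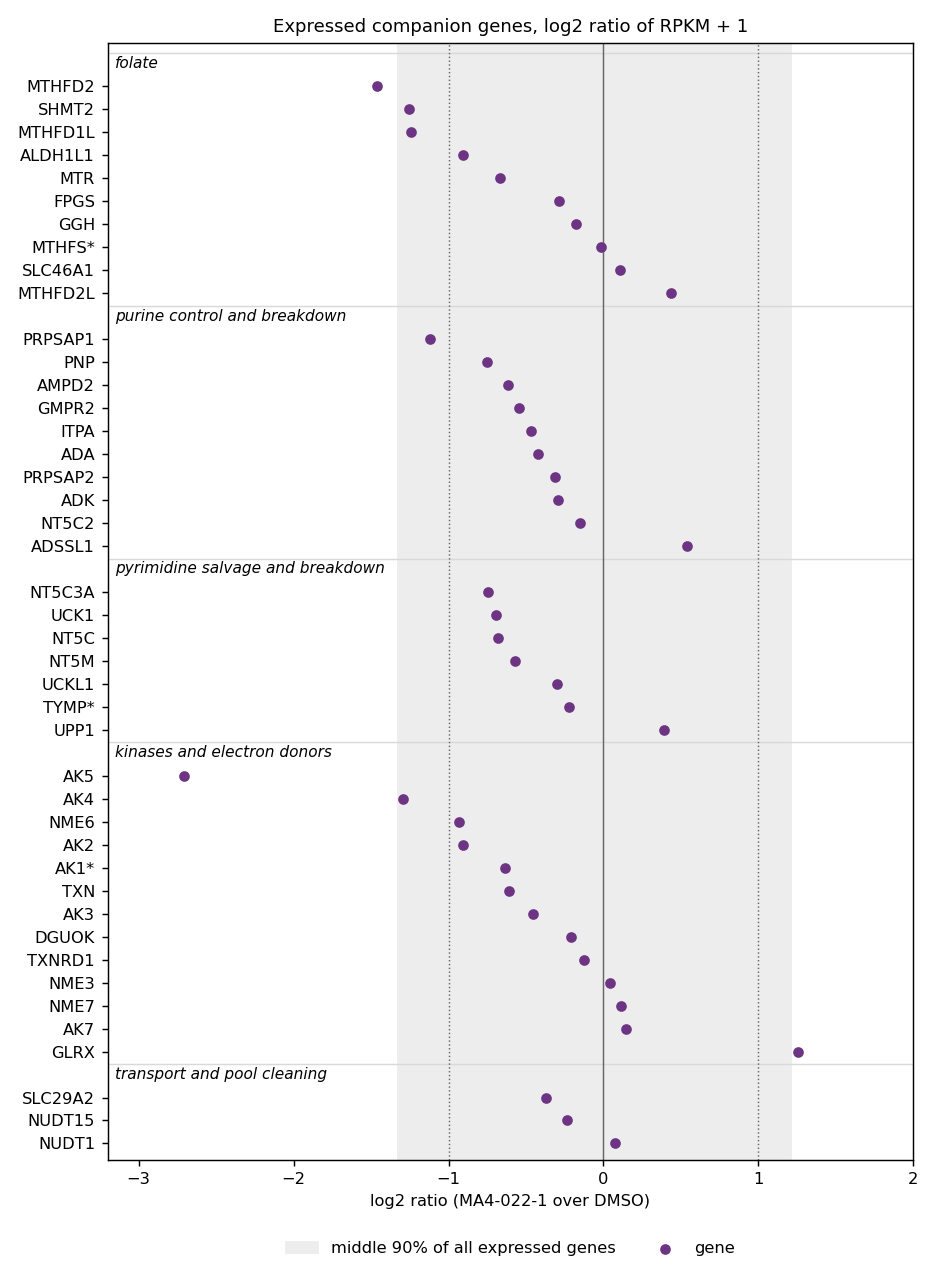
The log2 ratio of RPKM + 1, MA4-022-1 over DMSO, for the companion genes reported by name, by role (asterisks mark genes in joined rows), with dotted lines at 2-fold and the grey band for the middle 90% of all expressed genes. MTHFD2, SHMT2 and MTHFD1L lie leftmost of the folate genes drawn, AK5 lies at -2.71 and GLRX at 1.26.

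Promoter letters were counted over all members. RefSeq held 59 windows for 38 of the 41 genes, each from 250 bases before to 50 bases after a start, among 35116 windows in all. Windows of the same gene can overlap, so these shares are descriptions with no test. The E-box CACGTG was in 10 windows of the members (16.9%), against 7.26% of all windows and 9.40% of windows of expressed genes. Any of the E2F letters TTTCGCGC or TTTGGCGC or TTTCCCGC on either strand were in 6 windows (10.2%), against 2.74% and 3.96%. The CCAAT letters were in 17 windows (28.8%), against 34.6% and 35.1% in the same order, and the GC box GGGCGG in 42 (71.2%), against 45.0% and 65.7%. The NRF1 palindrome, GCGCA followed by its reverse complement, was in 1 window (1.69%), that of MTHFD1, against 1.24% and 2.14%. No motif contains the letters of another, though neighbouring matches may share bases. Genes at least 2-fold lower had the E-box in 6 of 27 windows and E2F letters in 3, and the other genes had them in 4 and 3 of 32 windows. E2F letters thus stood in 11.1% and 9.38% of windows. The CCAAT letters stood in 7 of 27 windows of the genes at least 2-fold lower (25.9%) and in 10 of 32 windows of the others (31.3%), a higher share in the others.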

How the data were processed

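The authors deposited 1 table of RPKM per gene for each library, per the file headers, with locus and symbol. The genome build was hg19 and the tools named are Cufflinks 2.2.1 and TopHat2 2.0.13, per the submitters' processing notes. Ribosomal RNA was removed from total RNA before single reads of 50 bases were sequenced, per the labels' protocols. RPKM are no counts, so no count test was run.

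Rows of a symbol were summed, and a row joining several symbols was counted with each gene it names, which concerned 5 of the 41 genes. Short RNA symbols were left out of the background. Expressed means at least 1 RPKM in a library, and the threshold was 2-fold on RPKM + 1. The members, their branches and the lists were chosen with earlier results of these data known. All 41 genes are named, and companion genes where 2-fold or more apart and at 5 RPKM or more in a library; GGH and MTHFD2L were added after their values were seen. Some listed genes count in the totals and are not reported here by name.

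Low values of processed pseudogenes moved in steps of 1 read, which placed the totals at 19739820 reads for MA4-022-1 and 26800965 for DMSO, with 87.7% and 87.9% of values within 2% of a whole step. Reads per gene were estimated from these totals and the median length of protein-coding transcripts in GENCODE release 29. Intervals at 95% come from the delta method on those reads; they hold counting error alone and rest on that length; the reads have no molecular identifiers. Steps were tested on simulated data. Scripts ran in Python 3.11.15 with matplotlib 3.10.9, pandas 2.3.3 and numpy 2.4.6.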

Additional observations from a re-analysis of the deposited data

How the results depend on the processing

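No paired analysis was possible because each group has 1 library, and no replicate could be left out. The count of 16 genes at least 2-fold lower was 17 with a pseudocount of 0.1 RPKM, 13 with one of 5 and 15 with ratios centred on housekeeping genes. It was 25 at a threshold of 1.5-fold and 7 at 3-fold, where 1 and 0 genes were higher. It was 10 of 24 genes with a row and locus to themselves and 10 of 32 without the deoxynucleotide branch, both chosen after seeing the data. Shares of all expressed genes are given for the main setting alone, so the counts at other settings describe the listed genes only and cannot be set against the background. Centring on the 22 housekeeping genes, whose median was -0.15, shifts every ratio up; the median of the 41 became -0.51, and the branch medians -0.48 (purine), -0.22 (pyrimidine), -1.25 (deoxynucleotide), -1.10 (salvage), -1.02 (folate) and -0.44 (nucleoside diphosphate kinases). With a pseudocount of 5, the deoxynucleotide, salvage and folate medians were -1.18, -0.76 and -0.67, as a larger pseudocount shrinks the ratios of low genes by construction. Without joined rows 15 of 37 genes were at least 2-fold lower, as DCK has only its row shared with MOB1B. In that setting 1 gene was at least 2-fold higher, TK2 at 1.24, from its own low row, and the salvage median was -1.02. Under these settings PFAS (-1.01 with 0.1), SLC29A1 (-0.66), SHMT1 (-0.94) and SLC19A1 (-0.67) with 5, ATIC (-0.95, housekeeping) and TK2 changed sides of 2-fold. Of 365 single values, 1 changed sign, TK2 at -0.08 in its largest row. Each group is a single library. The counting intervals were widest for CAD, PFAS, DTYMK, SLC29A1 and SLC19A1, and their widths depend on the transcript length used for each gene.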

Other observations

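Several of the genes share a deposited locus with a gene whose ratio was unlike theirs. CTC1, a telomere factor in the locus of PFAS, stood at 39.8 RPKM with MA4-022-1 and 12.5 RPKM with DMSO, against a log2 ratio of -0.93 for PFAS. CDT1, which licenses replication origins and lies in the locus of APRT, stood at 1.37 RPKM with MA4-022-1 and 8.11 RPKM with DMSO, a log2 ratio of -1.94 beside -0.79 for APRT. In the locus of GART, SON, a splicing cofactor, stood at 59.0 RPKM with MA4-022-1 and 38.8 RPKM with DMSO. In that of UCK2, TMCO1 stood at 430 RPKM with MA4-022-1 and 294 RPKM with DMSO. All 4 neighbours were chosen after their values were seen.

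Symbols of processed copies named after a member numbered 30, from 11 of the genes, and 16 were listed at 0 in both libraries. The highest value was 1.06 RPKM with MA4-022-1, of DUTP7, and 1.27 RPKM with DMSO, of DUTP2. Besides these, IMPDH1P10 also reached 1 RPKM in a library, which makes 3. Few reads were thus assigned to the copies, although reads that match a gene and its copy alike could have been placed on either.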
